A study of Xenopus tropicalis with 12 samples.

Results

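The comparison sets 3 RNA-seq libraries labelled contHomo against 3 labelled contWT, 6 of the 12 libraries of a study of tadpole intestine in the frog Xenopus tropicalis. They were taken by the column labels of the count table. By those labels contHomo is intestine without thyroid hormone receptor alpha, TRα(-/-), and contWT is wild-type intestine, both without thyroid hormone. The other libraries, T3WT and T3Homo, are by the same labels wild type and TRα(-/-) after 18 h in 10 nM T3. All tadpoles were labelled stage 52 to 54, and both genotypes descended from the same parents. The promoter, allele or lesion behind TRα(-/-) is not given in the sources used here.

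The labels do not agree on what contHomo is. By their titles, genotype and treatment, the 3 contHomo libraries come instead from wild-type tadpoles given T3, and the 3 T3WT libraries from untreated TRα(-/-) tadpoles. Read that way, the comparison is the response of wild-type intestine to 18 h of T3, and T3Homo vs T3WT is that of TRα(-/-) intestine. Below, the T3 groups are T3WT and T3Homo, named by column label. The contWT libraries carry one identity in every label. Each group is 1 pool of RNA merged from several tadpoles, and its 3 libraries are technical replicates. The p-values therefore compare 2 pools and hold no information on the spread between animals.

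T3 is the active form of thyroid hormone, and its rise drives the metamorphosis of a tadpole into a frog. TRα is a nuclear receptor that binds T3 response elements in DNA together with the retinoid X receptor. Without hormone it recruits corepressors and holds target genes low, and with hormone it recruits coactivators. In the tadpole intestine, metamorphosis replaces the larval epithelium, most of which dies, with an adult epithelium formed from stem cells. Because a receptor without hormone represses its targets, its loss in an untreated tadpole can release some genes before hormone arrives.

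The deposited values were counts of reads per gene for 19921 genes, and 13172 genes passed the filter on low counts. Library totals lay between 35951142 and 38423895 counts in contWT and between 34837299 and 40715696 in contHomo. Between 14751 and 14888 genes had a count in each of the 6 libraries. Levels are given in CPM, counts scaled to a common effective library size, and errors are SD over n = 3 libraries unless written as SE. The root mean square log2 difference between 2 libraries of a group was 0.15 in both contWT and contHomo. Between a contWT and a contHomo library it was 0.42 to 0.43. Nuclear genes carry an identifier only, and 0 of these identifiers could be matched to a symbol in the reference gene table. The receptor gene itself, markers of the intestine and of other tissues, and gene lists for hormone response or digestion were therefore not examined. Nuclear genes are given by position on the scaffolds of the deposited table, and as a bulk tissue was sequenced, fewer cells of a type and less RNA per cell cannot be told apart.

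Rises and falls in contHomo were close to equal in number. A gene was called at an adjusted p below 0.05 in edgeR's quasi-likelihood test and at least a 2-fold change. Of the 13172 genes, 787 (5.97%) were called, 409 higher (3.11%) and 378 lower (2.87%) in contHomo. The low-count filter used all 12 libraries, and 128 of the 787 did not pass it with the 6 libraries of this comparison alone. Large falls were more numerous than large rises. At least 8-fold changes were seen in 30 genes that rose and 66 that fell, and at least 16-fold changes in 15 and 32. Many of these genes were at low level. At 5 CPM or more in the higher group and without overlap of libraries, the smallest of the 12 largest rises was 2.69 on the log2 scale, short of 8-fold. The smallest of the 12 largest falls there was -3.82, short of 16-fold. Many genes lay near the fold threshold, with 132 genes at a log2 change of 0.9 to 1 and 126 at 1 to 1.1. At the same adjusted p without the fold threshold, 6983 genes (53.0%) passed, 3229 higher (24.5%) and 3754 lower (28.5%). These shares moved with the scaling. They were 26.2% higher and 26.8% lower with RLE factors, 26.1% and 26.7% with total-count scaling, and 22.5% and 22.6% with DESeq2. Over all genes tested, the log2 fold change had a median of -0.02.

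**Figure D1:**
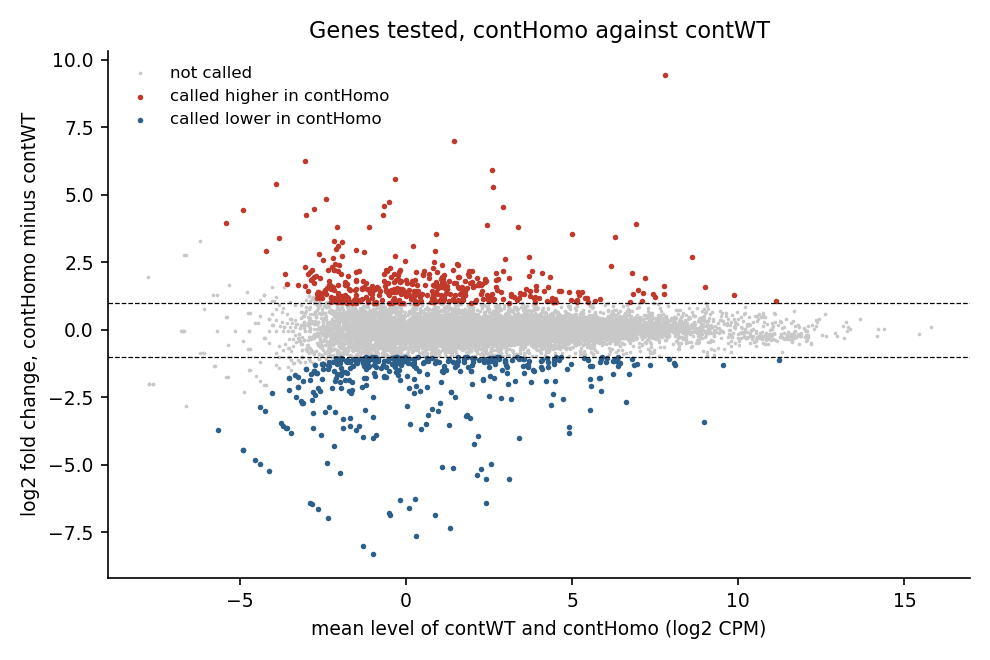
Each point is 1 of the genes tested, by its mean level in contWT and contHomo (log2 CPM) and its log2 fold change, contHomo minus contWT; dashed lines mark a 2-fold change, and the 8 genes with 0 counts in both groups are not drawn. The 409 red and 378 blue points are the genes called, and the lowest blue points lie at a log2 change under -7.5.

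The called genes made up a small part of the RNA. Genes called higher took 0.385 ± 0.00117% of all counts in contWT and 1.08 ± 0.00473% in contHomo. Genes called lower went from 1.04 ± 0.00977% to 0.397 ± 0.00123%. Calls were most frequent among genes of low level. Below 1 CPM in the higher group, 6.90% of 2057 genes rose and 7.54% fell, and from 5 to 20 CPM the shares were 1.69% and 1.72% of 3845. How many genes below 1 CPM passed the filter only with the T3 libraries included was not counted. At 100 CPM and above 19 of 1159 genes rose and 20 fell. Genes of a single exon fell more often than they rose, 27 against 12 of 465. At 5 CPM or more, 8.70% of 161 single-exon genes were called and 2.90% of 7908 genes with several exons, with no test of that difference.

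The gene with the largest rise was far higher in contHomo than in any other group. ENSXETG00000005714 lies on scaffold GL173212.1, from 277880 to 281520 on the plus strand, with 4 exons. It stood at 0.618, 0.514 and 0.762 CPM in the contWT libraries and at 443, 444 and 433 CPM in the contHomo libraries. The groups did not overlap, and contHomo held 697 times the contWT level (log2 fold change 9.44, edgeR adjusted p = 4.58e-117). That log2 fold change ranged from 9.32 to 9.59 with 1 library left out. Levels were 6.42 ± 0.144 CPM in T3WT and 0.105 ± 0.0354 CPM in T3Homo. There the Homo label went with the lower level (log2 fold change -5.89, edgeR adjusted p = 7.10e-51). The next rise had the same shape at a lower level. ENSXETG00000017955, on GL173118.1 from 50743 to 57766 with 8 exons, summed to 4 counts over the contWT libraries and 573 over the contHomo libraries. Its levels were 0.0562, 0.0286 and 0.0305 CPM against 5.33, 5.71 and 5.10 CPM, 140-fold apart (edgeR adjusted p = 6.05e-41). The log2 fold change was 7.0, and 6.83 to 7.36 with 1 library left out. Its level was close to 0 in both T3 groups, at 0.133 ± 0.0544 CPM in T3WT and 0.0322 ± 0.0558 CPM in T3Homo.

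Other large rises were chosen for description after their values were seen, from the 12 largest at 5 CPM or more. A pair of neighbours on GL172993.1, each with 3 exons on the minus strand, rose together. The one from 931135 to 932667 stood at 0.193 ± 0.0558 CPM in contWT and 11.9 ± 0.962 CPM in contHomo (log2 fold change 5.92), and the one from 939457 to 940502 at 0.304 ± 0.195 and 11.9 ± 0.280 CPM (log2 fold change 5.30). Both were also higher in T3Homo than in T3WT, at 53.7 ± 0.872 against 2.11 ± 0.0303 CPM and 51.0 ± 0.890 against 2.76 ± 0.270 CPM. A gene of 7 exons on GL172759.1, from 2634234 to 2647807, had a like order, with 13.6, 16.5 and 15.9 CPM in contWT and 229, 229 and 231 CPM in contHomo. It was at 62.8 ± 0.242 CPM in T3WT and 269 ± 1.88 CPM in T3Homo, so both Homo groups were the higher ones. A gene of 13 exons on GL173081.1, from 871398 to 877752, was lowest in contWT, at 103.4 ± 0.764 CPM, and stood at 677 ± 8.68 CPM in contHomo, 1633 ± 22.9 in T3WT and 2711 ± 34.7 in T3Homo. The rises described in this paragraph were the only ones of the 12 at a higher level in T3Homo than in T3WT. All others of the 12 were lower in T3Homo, some by less than 2-fold. One of them, on GL172717.1 from 2497084 to 2500808, stood at 23.7 ± 0.989 CPM in T3WT and 10.4 ± 0.144 CPM in T3Homo. In T3Homo vs T3WT, where 2.76% of all genes were called higher and 13.4% lower, 3 of the 12 were called higher, 4 lower and 5 were not called. With total-count scaling the counts were 3, 6 and 3.

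**Figure D2:**
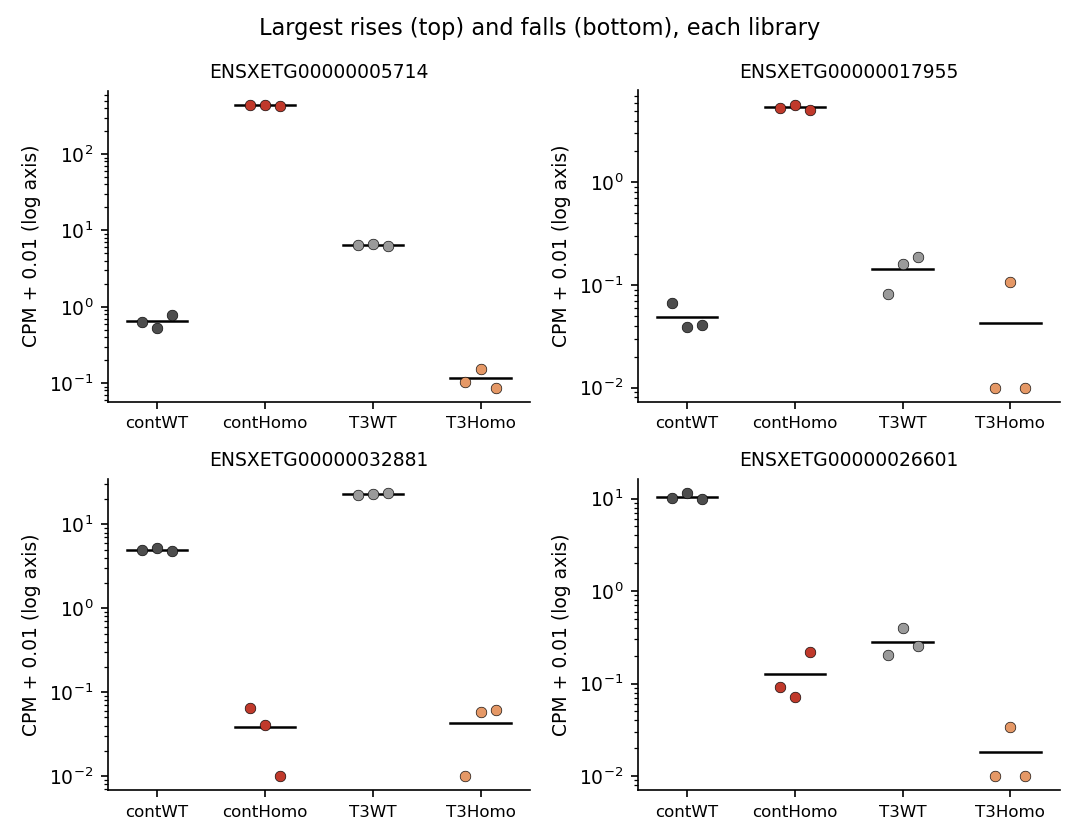
Level of the 2 largest rises (top) and the 2 largest falls (bottom) in each of the 12 libraries, as CPM + 0.01 on a log axis, with bars at the group means. Both rises are high in contHomo alone, ENSXETG00000032881 is near 0 in both Homo groups, and ENSXETG00000026601 is high in contWT alone.

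Among genes at 5 CPM or more in contWT, the largest fall was in a gene almost without reads in both Homo groups. ENSXETG00000032881 has 12 exons on the minus strand of GL172690.1, from 3197374 to 3225591. Its levels were 4.95, 5.2 and 4.88 CPM in contWT and 0.0549, 0.0307 and 0 CPM in contHomo. From 518 against 3 counts, contWT held 178 times the contHomo level, with a 95% exact interval of 60.7 to 868 that covers counting error only (edgeR adjusted p = 2.30e-42). The fitted log2 fold change was -7.32, and -8.17 without contHomo replicate 1. The gene was higher still in T3WT, at 23.0 ± 0.542 CPM, and had 4 counts in T3Homo. The next fall at 5 CPM or more, ENSXETG00000026601, with 6 exons on the plus strand of GL172876.1 from 1039070 to 1048447, was high in contWT only. It stood at 10.0, 11.4 and 10.0 CPM there and at 0.0824, 0.0614 and 0.211 CPM in contHomo (log2 fold change -6.39, edgeR adjusted p = 2.44e-52). Without contHomo replicate 3 the log2 fold change was -7.12. T3WT held 0.274 ± 0.101 CPM and T3Homo 1 count.

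A set of 6 genes shared the second pattern, high in contWT and low in the other 3 groups, and was picked after its values were seen. On GL172941.1 a gene of 3 exons, from 800053 to 800892, had 17.1, 16.2 and 17.0 CPM in contWT and a mean of 0.364 ± 0.0604 CPM in contHomo, with 1.03 ± 0.152 in T3WT and 0.537 ± 0.0696 in T3Homo. On the same scaffold, a single-exon gene of 648 bases, from 812189 to 812836, went from 8.66 ± 0.224 to 0.210 ± 0.0876 CPM. A single-exon gene that is also 648 bases long, on another scaffold, GL175354.1, from 11307 to 11954, went from 9.39 ± 0.103 to 0.259 ± 0.117 CPM. Another gene there, from 719 to 1525, fell from 5.24 ± 0.303 to 0.149 ± 0.0226 CPM. Further single-exon genes with this pattern lay on GL172942.1, from 1042895 to 1044817, at 11.5 ± 0.149 against 0.370 ± 0.107 CPM, and on GL173124.1, from 456431 to 459368, at 10.5 ± 0.433 against 0.223 ± 0.0339 CPM. The highest mean of the 6 in a T3 group was 1.03 CPM, and the 2 genes of 648 bases may share reads if they are copies, which was not tested. Among the 12 largest falls at 5 CPM or more, 4 had a single exon, the 2 genes of 648 bases among them. Of all genes tested at that level, 161 had a single exon and 7908 had several. T3Homo vs T3WT called 9 of the 12 lower as well, against 13.4% of all genes. The 9 include ENSXETG00000026601 and some of the set of 6, which lay at 1.03 CPM or below in both T3 groups.

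Some genes had almost no reads in one of the groups. By the rule of 0 counts in all libraries of a group and at least 1 CPM in the other, 1 gene was at 0 in contHomo and 0 genes were at 0 in contWT. It has 4 exons on GL172942.1, from 1201990 to 1205430, with 1.1, 0.799 and 1.13 CPM in contWT and 0 counts in all contHomo libraries. A floor of 3 counts over the group puts contWT at least 35.8-fold higher. In T3WT it reached 5.75 ± 0.382 CPM and in T3Homo again 0 counts, at least 236-fold apart. With up to 3 counts allowed in the low group, a limit set after the values were seen, 9 genes on 9 scaffolds were near 0 in contHomo and 1 gene near 0 in contWT. The 9 stood at 1.01 to 5.01 CPM in contWT and at 2.84 to 25.6 CPM in T3WT, higher there in all 9, and had between 0 and 5 counts in T3Homo. Over all genes the median log2 fold change in T3WT vs contWT was 0.05, and the share of genes higher in T3WT was not counted. The 1 gene of the other kind, on GL172795.1 from 239287 to 240312, had 3 counts in contWT and 166 in contHomo, 53.5-fold apart with an exact interval of 18.0 to 262. In T3WT it had 0 counts and in T3Homo 173.

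Among the most abundant called genes, most changes were between 2-fold and 4-fold. The 3 called rises with the most counts, per gene and not per length, were on GL172803.1, GL172851.1 and GL172916.1. The first, from 71665 to 80713, went from 1438 ± 13.2 to 3040 ± 17.6 CPM (log2 fold change 1.08 ± 0.01 SE), and it was also higher in T3Homo, at 2464 ± 17.4, than in T3WT, at 1024 ± 12.1 CPM. The one on GL172851.1, from 995024 to 999715, rose from 548 ± 9.38 to 1344 ± 24.8 CPM and stood at 2388 ± 26.2 in T3WT and 2395 ± 32.3 in T3Homo. The one on GL172916.1, from 603458 to 605661, had 247, 253 and 258 CPM in contWT and 766, 767 and 766 CPM in contHomo (log2 fold change 1.6 ± 0.02 SE), against 631 ± 9.88 in T3WT and 785 ± 3.82 in T3Homo.

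The 3 called falls with the most counts included neighbours. A gene of 11 exons on GL173303.1, from 347902 to 354356, fell from 3267 ± 29.7 to 1504 ± 13.9 CPM (log2 fold change -1.12 ± 0.01 SE). T3WT held 3045 ± 50.4 and T3Homo 2975 ± 26.9 CPM, so contHomo was the lowest group. The difference from T3Homo vs T3WT, -1.09 on the log2 scale, was -0.74 and no longer past the fold threshold with total-count scaling. The other 2 lay side by side on GL172721.1. The one from 2401448 to 2420376 had 910, 932 and 903 CPM in contWT and 83.5, 86.3 and 86.2 CPM in contHomo, a 10.7-fold difference (log2 fold change -3.42 ± 0.02 SE, edgeR adjusted p = 1.36e-112). Its neighbour from 2368127 to 2390055 fell from 1056 ± 12.7 to 429 ± 6.62 CPM. The gene from 2401448 stood at 201 ± 1.21 CPM in T3WT and 75.8 ± 1.26 CPM in T3Homo. For the neighbour these levels were 1527 ± 14.9 and 457 ± 5.76 CPM.

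Called genes lay beside each other more often than their overall share. Of the 657 places next to a gene called lower, along the tested genes, 60 (9.13%) held a gene called lower too. The share among all genes was 2.87%. A gene between 2 called genes counts at both places, and 51 of the 378 genes called lower had such a neighbour. For genes called higher the values were 5.94% and 3.11%. Runs of 4 or more neighbours called in the same direction numbered 2, both lower in contHomo. The first, 7 genes on GL172646.1 from 5071172 to 5183110, had summed levels of 119, 118 and 118 CPM in contWT and 15.1, 15.8 and 15.6 CPM in contHomo, 7.65-fold apart. Its member from 5133554 and its member from 5180804 have 6 exons each, of equal length in the same order over all 792 bases. The member from 5143995 shares 4 of these exon lengths, so the split of reads among members is uncertain.

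The second run, 4 genes on GL172951.1 from 18767 to 133376, summed to 50.3, 51.7 and 48.4 CPM in contWT and 15.0, 15.2 and 14.6 CPM in contHomo, 3.36-fold apart. It summed to 40.5 ± 0.417 CPM in T3WT and 18.6 ± 0.592 CPM in T3Homo. One member, from 82495 to 133376, spans another on the same strand, from 95307 to 95993, and a further gene from 120850 to 122230, and shares 0 annotated exon bases with either. All 9 genes tested on this scaffold, of 33 annotated, were called, 6 lower and 3 higher. The 3 that rose lie among and beside those that fell, and the one of highest level, from 7401 to 8126, went from 3.43 ± 0.525 to 8.54 ± 0.885 CPM. The other rises were at low level, from 0.163 to 0.337 CPM (log2 fold change 1.02) and from 0.185 to 0.527 CPM. In T3Homo vs T3WT, 6 of the 9 genes were called lower and 0 higher, and all 3 rises were among the 6. The one from 7401 stood at 14.7 ± 0.660 CPM in T3WT and 2.72 ± 0.159 CPM in T3Homo. The fall from 316518 to 377198 also lay near the fold threshold, at a log2 fold change of -1.03. This was the 1 scaffold of 720 with 5 or more genes tested on which all were called, while 347 had 0 called genes.

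Runs of 3 neighbours were added after the values were seen, and numbered 3. The run on GL172721.1, from 2368127 to 2436285, holds the abundant pair above and a gene from 2429055 to 2436285 that fell from 55.6 ± 2.39 to 3.96 ± 0.452 CPM. Its first 2 members share 7 consecutive exon lengths, 1402 bases in all, and the last 2 share 3. Together they went from 2027 ± 30.1 CPM in contWT to 518 ± 7.41 CPM in contHomo. In the T3 groups their sum went from 1741 ± 13.8 CPM in T3WT to 537 ± 6.99 CPM in T3Homo. The members did not move alike from contWT to T3WT. The first rose from 1056 to 1527 CPM, and the others fell, from 915 to 201 CPM and from 55.6 to 12.6 CPM. The run on GL173303.1, from 324896 to 471862, holds the abundant fall there, and its other members fell from 3.56 to 0.547 CPM and from 36.2 to 6.99 CPM. Its sum went from 3307 ± 30.3 to 1512 ± 14 CPM, and stood at 3080 ± 49.96 CPM in T3WT and 2989 ± 27.0 CPM in T3Homo. That sum is mostly the abundant gene. The other members were called lower in T3Homo vs T3WT, from 5.78 to 0.818 CPM and from 28.6 to 13.2 CPM. The 1 run of 3 that was higher, on GL174029.1 from 9628 to 57947, stood apart in contHomo alone. Its sum was 64.2, 62.0 and 62.9 CPM in contWT and 145.3, 145.3 and 141 CPM in contHomo. T3WT held 60.6 ± 0.772 CPM and T3Homo 63.3 ± 0.952 CPM. All 3 members share 6 consecutive exon lengths, and the first 2 share 9. A sum is not changed by how reads counted once were split among members, but the handling of multiply aligned reads is not given.

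**Figure D3:**
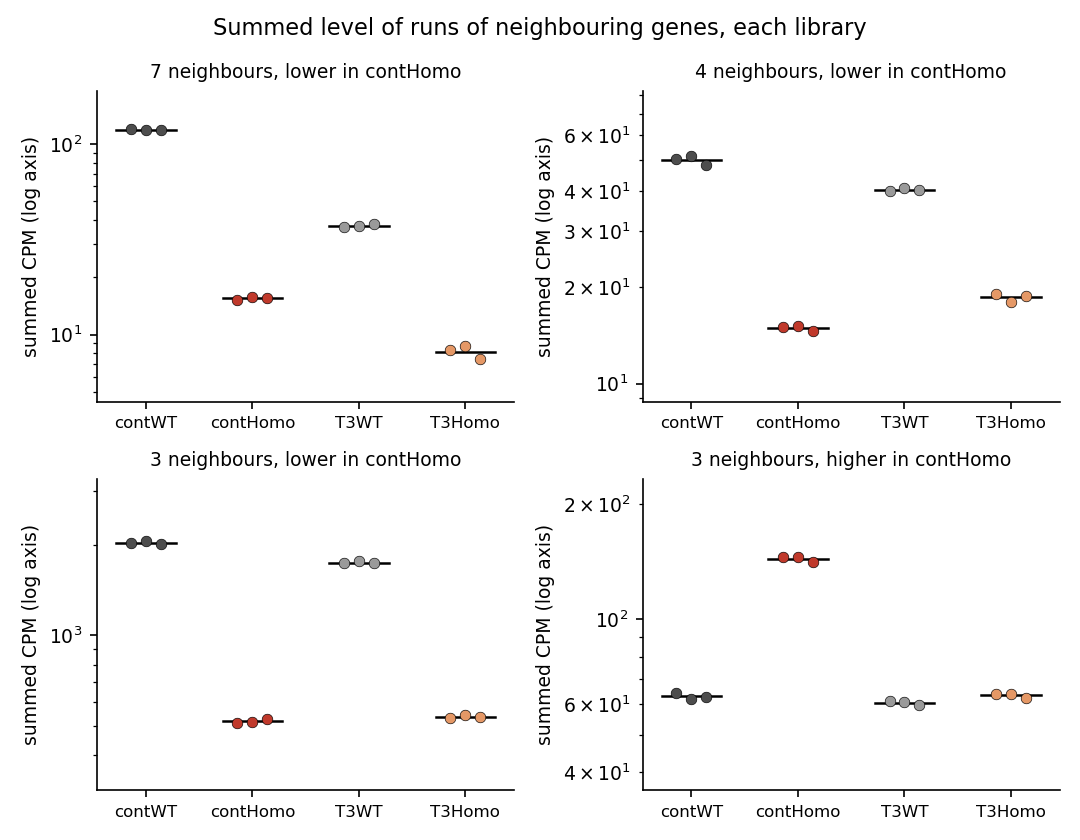
Summed level in CPM (log axis) of 4 runs of neighbouring genes in each of the 12 libraries, with bars at the group means. Drawn are the runs on GL172646.1, GL172951.1, GL172721.1 and GL174029.1; the first 3, lower in contHomo, are also lower in T3Homo than in T3WT, and the last, higher in contHomo, stands between 60.6 and 63.3 CPM in the other groups.

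The same genes were set beside T3Homo vs T3WT, the other comparison of a Homo with a WT label, which shares no library with this one. The T3 libraries still took part in the choice of genes, as the low-count filter used all 12 libraries. With the 6 contHomo and contWT libraries alone, 128 of the called genes did not pass it. Shares and medians of the called genes in T3Homo vs T3WT carry that choice in part. They were not recomputed without the 128 genes. By the column labels both comparisons differ in genotype, and by the titles both differ in T3. Genotype and T3 therefore cannot be told apart as the source of a change that both share. T3Homo vs T3WT called 2125 genes, 16.1% of all, 364 higher and 1761 lower. With total-count scaling 182 were higher and 2663 lower, which moved the median over all genes from -0.02 to -0.35 on the log2 scale. Of the 378 genes lower in contHomo, 230 (60.8%) were also called lower in T3Homo, where 13.4% of all genes were, and 12 were called higher. These 230 were 13.1% of the 1761 genes lower in T3Homo. The share grew with the size of the fall, from 51.9% of 264 genes at 2-fold to 4-fold, to 77.1% of 48 at 4-fold to 8-fold and 84.8% of 66 beyond. For rises of the same sizes 11.99% of 317, 9.68% of 62 and 30% of 30 genes were called higher, and 59, 25 and 10 genes lower. Of the 409 genes higher in contHomo, 53 (12.96%) were called higher in T3Homo, where 2.76% of all genes were, and 94 (23.0%) were called lower. The 53 were 14.6% of the 364 genes higher in T3Homo. With total-count scaling of the T3 groups, 271 of the falls were called lower, against 20.2% of all genes, and 43 of the rises were called higher, against 1.38%, and 150 lower.

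**Figure D4:**
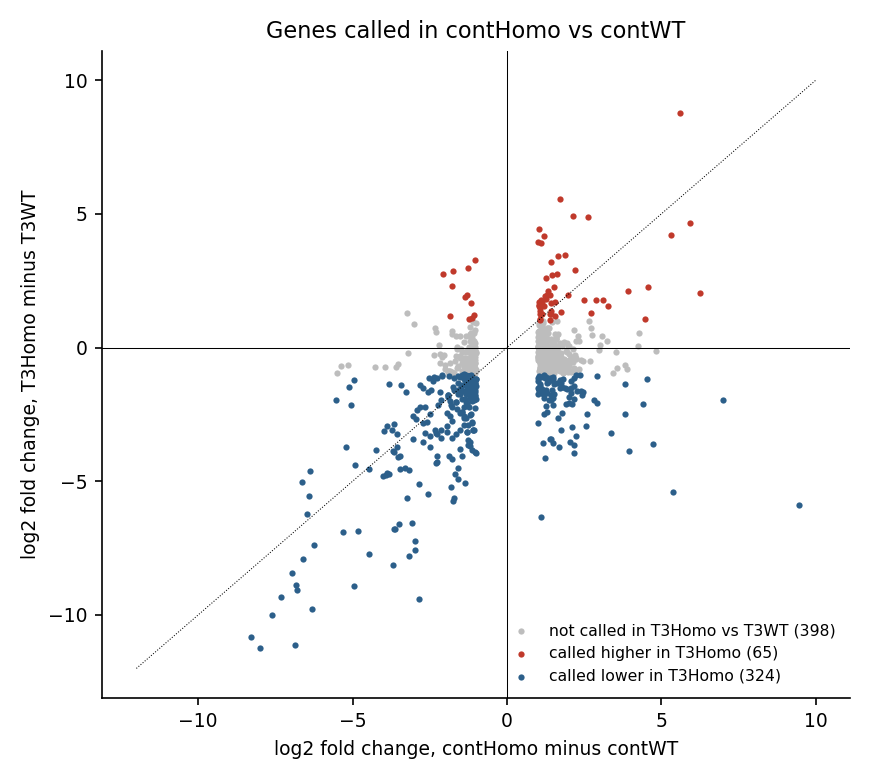
Each point is 1 of the 787 genes called in contHomo vs contWT, by its log2 fold change there (x) and in T3Homo vs T3WT (y); the dotted line marks equal changes. Most falls on the left lie below 0 on the y axis, whereas rises on the right lie on both sides of it.

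The medians are given for both sets. The 378 falls had a median log2 fold change of -1.41 in contHomo vs contWT and -1.35 in T3Homo vs T3WT, where the median of all genes was -0.02. The 409 rises had a median of 1.49 and of -0.43. The comparisons with T3 share libraries with this one, and their medians are given as values only. In T3WT vs contWT the median was 1.72 for the rises and -0.05 for the falls, and in T3Homo vs contHomo it was -0.17 and 0.00. The difference between contHomo minus contWT and T3Homo minus T3WT was called for 2059 genes, 15.6% of all, 12.4% above 0 and 3.24% below (1632 and 427 genes, and 2516 and 180 with total-count scaling). It was called for 331 of the 409 rises and 135 of the 378 falls, counts that carry the choice of genes by the first of these changes.

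Nuclear genes aside, the 13 protein-coding genes of mitochondrial DNA could be named, since their start and end match the reference mitochondrial sequence. They encode subunits of the respiratory chain and of ATP synthase, and their changes were small. Together they took 1.93 ± 0.0256% of counts in contWT and 1.87 ± 0.0229% in contHomo. At an adjusted p below 0.05, which 53.0% of all genes passed (28.5% lower, 24.5% higher), 10 of the 13 fell, 1 rose and 2 stayed short of the threshold. All but ND6 had means of at least 40.5 CPM in both groups, where small changes pass more easily than at few counts. Their median log2 fold change was -0.12. No member reached a 2-fold change.

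In complex I, the NADH dehydrogenase, 6 of 7 subunit genes fell at that adjusted p, as 28.5% of all genes did. ND2 had 344, 333 and 359 CPM in contWT and 278, 281 and 292 CPM in contHomo, the largest fall of the 13 (log2 fold change -0.28 ± 0.02 SE, edgeR adjusted p = 1.47e-23). ND4L, at 49.0 ± 1.42 against 40.5 ± 1.37 CPM, had a log2 fold change of -0.27, and ND4, ND1, ND3 and ND5 had -0.24, -0.16, -0.17 and -0.12. ND6, the complex I gene on the other strand, did not pass, at 4.05 ± 0.173 against 4.03 ± 0.533 CPM. CYTB, the mitochondrial subunit of complex III, fell by 0.10 on the log2 scale, and the ATP synthase genes ATP6 and ATP8 fell by 0.12 and 0.10.

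Complex IV, cytochrome c oxidase, was split. COX1, the subunit that holds the catalytic centre, had 6955, 6901 and 7136 CPM in contWT and 5936, 5871 and 5934 CPM in contHomo (log2 fold change -0.24 ± 0.01 SE, edgeR adjusted p = 6.07e-30). COX3 was the 1 gene that rose, from 4937 ± 121 to 5447 ± 32.7 CPM (log2 fold change 0.14 ± 0.01 SE, edgeR adjusted p = 3.62e-15). COX2 did not pass, at 4926 ± 134 against 5024 ± 193 CPM (log2 fold change 0.03, edgeR adjusted p = 0.13). It passed as a rise with RLE factors (adjusted p = 0.018), at total-count scaling (adjusted p = 0.0068) and in 3 other alternatives. In T3Homo vs T3WT all 13 fell at an adjusted p below 0.05, as 38.9% of all genes did, with a median of -0.54. With total-count scaling all 13 fell too, as 66.4% of all genes did. Their median was then -0.87, and that of all genes -0.35. The difference between both comparisons was above 0 at that adjusted p for all 13, as it was for 30.3% of all genes, and for 12 of the 13 with DESeq2. With total-count scaling it was above 0 for all 13 and for 58.3% of all genes.

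**Figure D5:**
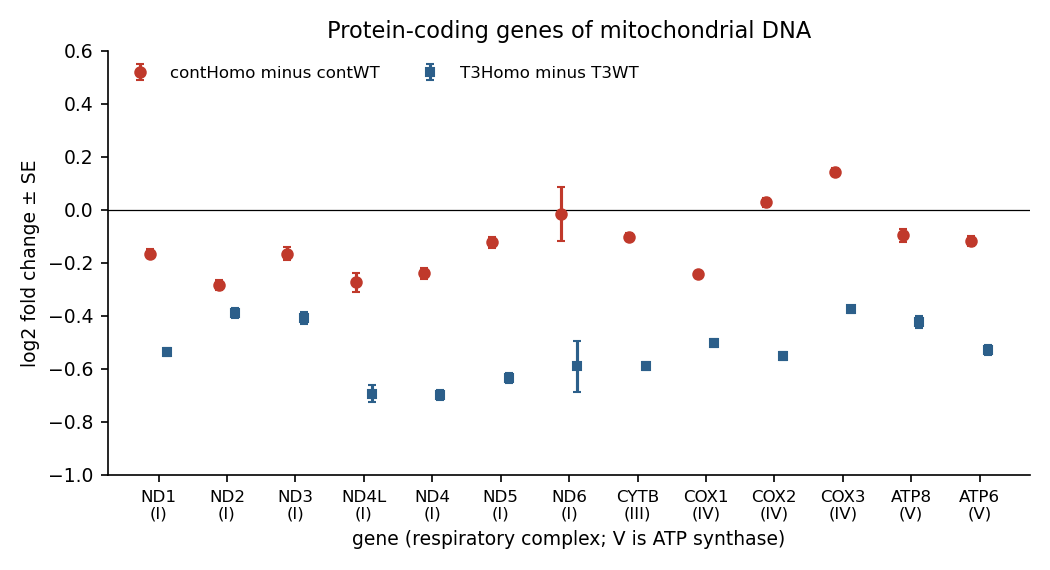
Log2 fold change with SE of the 13 protein-coding mitochondrial genes in contHomo minus contWT (circles) and T3Homo minus T3WT (squares), ordered by respiratory complex. The circles lie between -0.28 and 0.14, and the squares are all below the circle of the same gene.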

How the data were processed

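RNA from the intestines of several tadpoles was merged per group and sequenced as 3 libraries, per the labels. The authors deposited a table of raw counts, whole numbers of reads for each gene. STAR 2.5.3a and featureCounts 1.4.6-p3 appear in the submitters' processing notes. For genome build, annotation release, strand setting and multiply aligned reads, the entry is "not given in the sources used here", so reads of overlapping, antisense or copied genes cannot be separated. Libraries held 34322099 to 44755390 counts. Over a group, 3 counts equal 0.0290 CPM in contWT and 0.0281 CPM in contHomo. Intervals and floors cover counting error only.

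After filterByExpr and TMM scaling, edgeR 4.0.16 in R 4.3.3 fitted 1 coefficient per group to all 12 libraries. P-values of the quasi-likelihood test were Benjamini-Hochberg adjusted within each contrast over its 13172 genes. Each SE is the log2 fold change divided by the root of F. For the largest changes, which rest on few counts in 1 group, this understates the error, so no SE is given. In simulated counts for contHomo vs contWT, over 12936 genes, 100% of genes changed 3-fold were recovered, with 2 false calls. Of genes changed 1.5-fold, below the fold threshold, 0% were called. The simulation used 1 common dispersion and changed only genes above a minimum of expected counts. It holds no spread between animals, so it checks the code and does not give the error rate of the calls. Libraries of a group differed beyond sampling noise (chi-square per gene 1.25 to 1.84). Each was entered in the fit, but the libraries of a group stem from 1 pool and are not independent samples.

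Members and lists were chosen with earlier results of these data known. Genes were named by rule if among the 2 largest changes per direction at 5 CPM or more without overlap of libraries, the 13 mitochondrial genes, the 3 called genes of highest mean CPM per direction, or runs of at least 4 neighbours. Alternatives were RLE and total-count scaling, no filter, DESeq2 1.42.0, a replicate block, the 6 libraries alone, glmTreat, no fold threshold and leaving out each library. Mitochondrial genes were matched by start and end to the reference gene table of UCB_Xtro_10.0.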

Additional observations from a re-analysis of the deposited data

Results flagged for a closer look

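The change from contWT to contHomo and the change from T3WT to T3Homo differed, by a test of the difference in edgeR, at 2059 genes past the threshold for a call. They were 15.6% of all genes tested. Of the 10 largest and most abundant changes named by rule, 6 were among them, and of the 11 members of the 2 runs of at least 4 genes, 2. These genes were chosen by the change from contWT to contHomo, which enters the difference, so both counts carry that choice. Each value here is the first log2 fold change minus the second. ENSXETG00000005714, the largest rise, had a difference of 15.33, as it rose in contHomo and fell in T3Homo. ENSXETG00000017955 had 8.95. The abundant gene on GL172851.1 had 1.29, and that on GL172916.1 had 1.28. The abundant fall on GL173303.1 had -1.09 (-0.74 with total-count scaling, short of the fold threshold), and the fall on GL172721.1 from 2401448 to 2420376 had -2.01. The cause of these differences was not tested.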

How the results depend on the processing

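The 787 calls became 355 with glmTreat (188 higher, 167 lower) and 6983 without the fold threshold (3229 higher, 3754 lower). With glmTreat, T3Homo vs T3WT had 1340 calls and the difference of both comparisons 1016. With total-count scaling they had 2845 (182 higher, 2663 lower) and 2696, where the values reported are 2125 and 2059. Without the filter they had 2551 and 2175, and with RLE factors 2120 and 2056. Leaving out 1 library gave 789 to 812 calls in contHomo vs contWT (408 to 422 higher, 370 to 391 lower), and 706 to 717 of the 787 were kept. It gave 2183 to 2254 calls in T3Homo vs T3WT, 2021 to 2093 in the difference and 11 to 12 mitochondrial genes at adjusted p below 0.05. Other settings gave, for contHomo vs contWT, 660 (the 6 libraries alone, 12501 genes tested) to 888 calls (no filter, 16731 tested), and 0 of the 787 turned in direction. With DESeq2 722 of the 787 were kept. Same-numbered libraries of contWT and contHomo deviated with correlations of 0.0052 to 0.034, so the numbers do not pair them, and a fit with the replicate block gave 782 calls.

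All 507 values of 39 nuclear genes kept direction and call. The fitted change of 11 genes with few counts moved by over 1.5 times when 1 library was left out or with DESeq2. Where such a gene had 3 counts or fewer and is described singly, a ratio of counts or a bound from the floor is given. For ENSXETG00000032881 the fitted change stands beside that ratio. ND6, which did not pass, turned to 0.0021 with DESeq2, 0.0050 without contWT replicate 1, 0.00031 without contWT replicate 3 and 0.089 without contHomo replicate 3; over all libraries left out in turn it ranged from -0.098 to 0.089. Each group is 1 pool, so depth limits genes of few counts and the lack of separate pools limits all.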
